A study of Oryza sativa Japonica Group with 20 samples.

Results

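Fructose-1,6-bisphosphatase removes a phosphate from fructose-1,6-bisphosphate. AB007193 and AB007194 were taken as rice cDNAs of this enzyme, an identity that the deposited files do not describe, and were followed by identifier through every tissue and time. They are 2 of the 27,609 gene features of a rice array. Leaves and roots of seedlings of Oryza sativa japonica cultivar Nakdong, non-transgenic and 14 days old, were collected separately before air-drying and after 0.5, 2, 6 or 12 h of it. All seedlings, those of 0 h included, had first stood in fresh water for 1 day after removal from soil. They were dried at 32 °C and 50% humidity under continuous light of 150 μmol per m2 per s, with the roots wrapped in tissue and foil. Each of the 10 groups of tissue and time had 2 arrays, which the labels call biological replicates, and the number of seedlings in each is not given in the sources used here. No array held undried seedlings kept in the chamber for the same hours, so that dehydration and time under the chamber's light and heat cannot be told apart.

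In plants one form of this enzyme works in the chloroplast, in the cycle that fixes carbon dioxide, and depends on light through the thioredoxin system. Another form works in the cytosol, on the way from exported triose phosphates to sucrose, where fructose-2,6-bisphosphate inhibits it. Roots are fed by imported sucrose and are mostly without photosynthesis. Which form each of the features stands for is not given in the sources used here.

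Values are intensities on a linear scale, summarised per gene by RMA from 10 probes for each of the 2 features. Changes are differences of mean log2 intensity from one limma fit of all 20 arrays, and a change was called at an adjusted p under 0.05 with a size above 1. The array medians lay between 1954 and 2743. The RANDOM feature, which has no target in rice, read 115 to 228 on 18 arrays, but 362 on replicate 1 of leaf at 0.5 h and 340.2 on replicate 2 of root at 0.5 h. Green-tissue genes followed the labels. The 7 genes rbcS and CB1 to CB6, of the small subunit of Rubisco and of chlorophyll a/b binding proteins, were all called lower in root before dehydration. The log2 difference from leaf was −6.44 to −5.18 for 6 of them. CB6 lay below the RANDOM feature on both root arrays of 0 h, so that only a bound is given, at least 6.97 higher in leaf (adjusted p = 7.75e-07 from limma).

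Before dehydration both features were brighter in leaf. AB007193 read 25,488 and 32,025 in the leaf replicates and 753 and 1226 in those of root. The root mean was 3.44% of the leaf mean. AB007194 read 8802 and 6645 in leaf and 278 and 907 in root, where its mean was 7.67% of that in leaf. Leaf and root values did not overlap for either feature, as for 27.1% of all genes lower in root. The log2 difference of root minus leaf was −4.89 for AB007193 (SE 0.61, adjusted p = 6.86e-05 from limma) and −3.93 for AB007194 (SE 0.99, adjusted p = 0.0119). Of all genes, 7.19% were called lower in root than in leaf in the same comparison. The call of AB007194 was lost when replicate 1 of leaf (adjusted p = 0.0747) or of root (0.126) at 0 h was left out, and with the RANDOM feature subtracted (0.0935) or treat (0.0721). In whole organs, fewer cells of a type and less RNA per cell cannot be told apart.

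**Figure D1:**
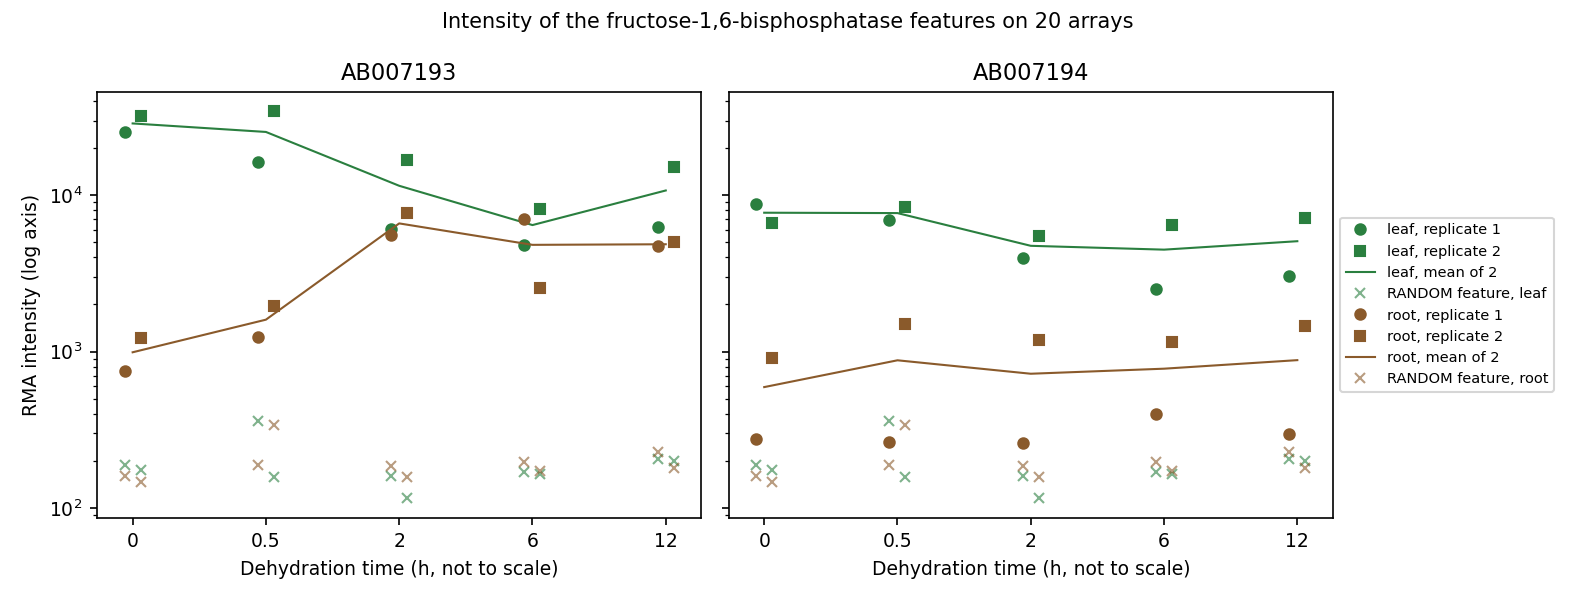
Intensity (log axis) of AB007193 and AB007194 at each time in leaf (green) and root (brown), with circles for replicate 1, squares for replicate 2, lines for the mean of the 2 arrays and crosses for the RANDOM feature on the same arrays. AB007193 goes from 28,757 to 6439.9 in leaf between 0 and 6 h and from 989.6 to 6599 in root between 0 and 2 h, whereas the root squares of AB007194 stay above the root circles at every time.

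AB007193 fell in leaf, where 6 h was the time that passed the test. At 0.5 h its replicates were 16,385 and 34,352, on either side of the 0 h values, and the mean was 25,369 ± 12,705 (SD, n = 2). At 2 h they were 6066 and 16,899, with a mean of 11,482 ± 7659.8. At 6 h they were 4779 and 8101, with a mean of 6439.9 ± 2349, the lowest of the leaf means and 22.4% of that at 0 h. At 12 h the replicates were 6298 and 15,134, with a mean of 10,716 ± 6248. The replicates of the 3 later times were all below those of 0 h. The same held for 23.7%, 32.4% and 33.4% of all genes at 2, 6 and 12 h.

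After 6 h its log2 change came to −2.20 (SE 0.61, 95% interval −3.50 to −0.89, adjusted p = 0.0279 from limma). At that time 8.72% of all genes were called lower in leaf. The change after 2 h, −1.50, did not pass (adjusted p = 0.122), and neither did that after 12 h, −1.55 (adjusted p = 0.101). Their 95% intervals, from −2.80 to −0.19 and from −2.85 to −0.24, lay below 0. At 0.5 h the change was −0.27 (adjusted p = 0.791). The call at 6 h was lost when any of the 4 arrays was left out, with an adjusted p of 0.0753 and 0.151 for replicates 1 and 2 of 0 h, and of 0.166 and 0.0773 for those of 6 h. It was also lost with only the 10 leaf arrays (0.0752), with the RANDOM feature subtracted (0.0555) and with limma's treat test against a log2 change of 1 (0.545).

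In root AB007193 rose. From 753 and 1226 at 0 h (mean 989.6 ± 335, SD, n = 2) it went to 1246 and 1953 at 0.5 h, just above the 0 h values. At 2 h the replicates were 5554 and 7644, with a mean of 6599 ± 1478. After 6 h they were 7066 and 2559.8, with a mean of 4813 ± 3186. The 12 h replicates were the closest to each other, 4699 and 5011, with a mean of 4855 ± 220.9. Both replicates of each later time lay above both of 0 h. The same was seen for 19.4%, 23%, 29.2% and 26.2% of all genes after 0.5, 2, 6 and 12 h.

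The root rise passed the test at 2, 6 and 12 h. The log2 change was 2.76 at 2 h (SE 0.61, 95% interval 1.46 to 4.07, adjusted p = 0.0235 from limma). After 6 h it was 2.15 (95% interval 0.84 to 3.45, adjusted p = 0.0436). After 12 h it was 2.34 (95% interval 1.03 to 3.64, adjusted p = 0.0191). At 0.5 h it was 0.70 (adjusted p = 0.443). Among all genes, 1.67%, 2.19% and 3.31% were called higher in root at 2, 6 and 12 h, and 1.13% at all 3 of these times. At 2 h 99.5% of genes had a smaller change than AB007193.

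With 1 array left out the root changes stayed between 2.41 and 3.11 at 2 h, between 1.41 and 2.88 at 6 h, and between 1.98 and 2.69 at 12 h, but most calls were lost. The call at 2 h was lost with replicate 1 or 2 of 0 h left out (adjusted p = 0.235 and 0.0527) and with replicate 1 or 2 of 2 h left out (0.0939 and 0.232). That at 6 h was lost with either array of 0 h (0.31 and 0.079) or of 6 h (0.347 and 0.0597) left out, and with the RANDOM feature subtracted (0.0631). That at 12 h was lost with replicate 1 of 0 h (0.164) or either array of 12 h (0.0776 and 0.11) left out, but passed with replicate 2 of 0 h left out (0.0412). With treat none of the 3 passed (0.434, 0.79 and 0.346).

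The changes of AB007193 in root and leaf differed at 2, 6 and 12 h. The change in root minus the change in leaf was 4.26 at 2 h (SE 0.86, adjusted p = 0.0273 from limma's interaction contrast). It came to 4.35 by 6 h (adjusted p = 0.0188) and to 3.89 by 12 h (adjusted p = 0.0233). The 95% intervals ran from 2.41 to 6.10, from 2.50 to 6.19 and from 2.04 to 5.73. At 0.5 h the difference was 0.97 (adjusted p = 0.999). A root change above the leaf change was called for 0.587%, 1.09% and 1.68% of all genes at 2, 6 and 12 h. At 6 h AB007193 was also one of 15 genes, or 0.0543%, that were called lower in leaf and higher in root. At that time the tissues, which had not overlapped at 0 h, did so, with 4779 and 8101 in leaf and 7066 and 2559.8 in root. They also overlapped at 2 h, but not at 12 h, where both leaf replicates were above both of root.

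With 1 array left out these differences stayed between 3.25 and 5.08, but each lost its call for some arrays. For 2 h these were replicates 1 and 2 of leaf 0 h (adjusted p = 0.063 and 0.103), replicate 1 of root 0 h (0.124), and replicates 1 and 2 of root 2 h (0.0726 and 0.124). For 6 h they were replicate 2 of leaf 0 h (0.0765), replicates 1 and 2 of leaf 6 h (0.0707 and 0.0517), replicate 1 of root 0 h (0.0876) and replicate 1 of root 6 h (0.0782). For 12 h they were both of leaf 0 h (0.0567 and 0.0789), replicate 1 of leaf 12 h (0.0771), replicate 1 of root 0 h (0.101), and both of root 12 h (0.0694 and 0.0769). With treat the adjusted p was 0.18, 0.132 and 0.173.

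**Figure D2:**
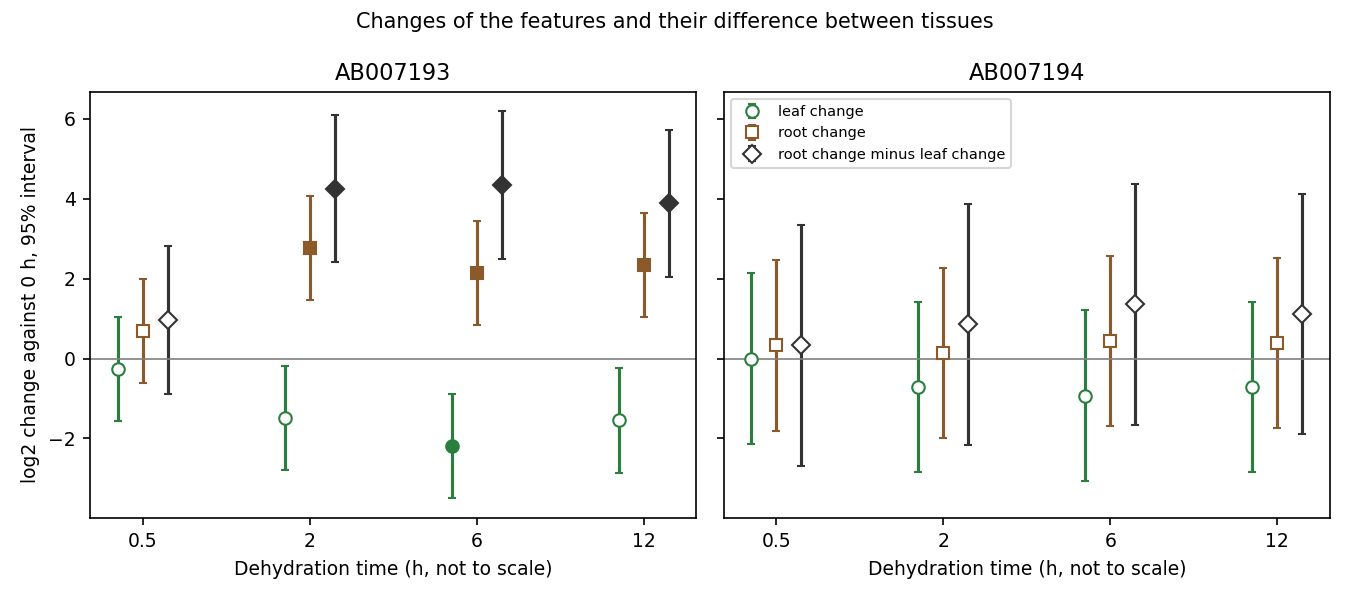
Log2 change against 0 h in leaf (circles) and root (squares) and the root change minus the leaf change (diamonds) after 0.5, 2, 6 and 12 h, with 95% intervals of the limma fit and filled symbols where the change was called. The 3 filled diamonds of AB007193 lie between 3.89 and 4.35, and no symbol of AB007194 is filled.

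AB007194 was called at no time in either tissue. A call in either direction was made for 0.406%, 11.9%, 14.4% and 15.7% of all genes in leaf after 0.5, 2, 6 and 12 h, and for 1.69%, 3.46%, 8.31% and 14.2% in root. In leaf its replicates were 6922 and 8443 at 0.5 h, against 8802 and 6645 at 0 h. After 2 h they were 3980.1 and 5509.7. The 6 h replicates, 2508 and 6461, and the 12 h replicates, 3051 and 7105, stood further apart. Both replicates lay below both of 0 h at 2 and 6 h, as for 23.7% and 32.4% of all genes. Those of 0.5 and 12 h overlapped with 0 h. In time order the means were 7724 ± 1525, 7682 ± 1076, 4745 ± 1082, 4484 ± 2795 and 5078 ± 2867 (SD, n = 2). The log2 change was −0.00 for 0.5 h (adjusted p = 1 from limma), and −0.71, −0.93 and −0.72 for the later times (adjusted p = 0.725, 0.565 and 0.729). The 95% interval at 6 h ran from −3.06 to 1.20.

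In root AB007194 split by replicate. In time order replicate 1 read 278, 266, 261, 397 and 298, and replicate 2 read 907, 1493, 1182, 1157 and 1465. Every array of replicate 2 was above every array of replicate 1, and within each replicate the times differed less than the replicates did. In 9.84% of all genes replicate 2 was higher than replicate 1 at all 5 root times. The root changes of AB007194 were 0.33, 0.15, 0.43 and 0.40 after 0.5, 2, 6 and 12 h (lowest adjusted p = 0.842 from limma), with a 95% interval of −1.99 to 2.28 at 2 h. The standard deviation between replicates over the 10 groups was 1.13 on the log2 scale, larger than that of 98.4% of genes. For AB007193 it was 0.67, and the median over all genes was 0.42.

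The differences between the root and leaf changes of AB007194 were 0.33, 0.85, 1.36 and 1.11 after 0.5, 2, 6 and 12 h, with adjusted p from 0.684 to 0.999 in limma's interaction contrasts. These contrasts called 0.00362%, 2.28%, 2.94% and 4.52% of all genes in either direction. The 95% interval at 6 h ran from −1.65 to 4.37. The within-array log2 ratio of AB007193 to AB007194, taken relative to its mean at 0 h, was −1.27 ± 0.43 in leaf at 6 h (SD, n = 2) and −0.83 ± 0.03 at 12 h. In root no ratio is given, since AB007194 was dim there. The difference between the features in their changes was not tested.

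Ordered by mean, AB007193 was brightest in leaf at 0 h, followed by leaf at 0.5, 2 and 12 h, root at 2 h, leaf at 6 h and root at 12, 6, 0.5 and 0 h. Neighbours in this order overlapped down to root at 6 h. Root at 0.5 h lay below root at 6 h without overlap, and root at 0 h lay below root at 0.5 h. For AB007194 the 5 leaf groups stood above the 5 root groups, with the only gap between neighbours from leaf at 6 h to root at 12 h.

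Both features were above the RANDOM feature on all 20 arrays, but by different margins. AB007193 read 28.0 to 219 times the RANDOM feature of the same array in leaf. In root it read 4.69 and 8.40 times that feature at 0 h, and at most 48.1 times, at 2 h. AB007194 read 14.7 to 53.8 times the RANDOM feature in leaf. In root it read 1.31 to 2.03 times that feature on the arrays of replicate 1 and 4.39 to 8.10 times on those of replicate 2. Of all genes, 10.7% to 16.7% read lower than AB007194 on the root arrays of replicate 1, and 25.9% to 41.9% on those of replicate 2.

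The array also carries 5 features for transgene sequences, Bar, gus, Hygromycin, Knamycin and sGFP, built from 3 to 9 probes each. Non-transgenic seedlings should hold none of them. They serve here as a gauge of signal without a target, and differ from the rice features in sequence and probe number. They read above the RANDOM feature on all 20 arrays, and in root the median was 440.4 for gus and 3384 for sGFP. In root AB007194 was below all 5 of them on each array of replicate 1. On replicate 2 it was above gus on 5 of 5 arrays, above Bar, Hygromycin and Knamycin on 4, and above sGFP on none. AB007193 was below Hygromycin and Knamycin in root at 0 h and below Hygromycin at 0.5 h on replicate 1, and above sGFP on 5 of 10 root arrays, which were both of 2 h, both of 12 h and replicate 1 of 6 h. Intensities of AB007194 in root, 261 to 1493, lay within or below the span of these features, 289 to 4765. So did those of AB007193 at 0 h, on which its root fold changes rest. In leaf AB007193 was above all 5 transgene features on all 10 arrays. There AB007194 was above sGFP on 7 of 10 arrays, 2 of 5 of replicate 1 and 5 of 5 of replicate 2, and above the others on all 10. Its replicate 1 in leaf read 2508 at 6 h and 3051 at 12 h, against 4340 and 4926 for sGFP.

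**Figure D3:**
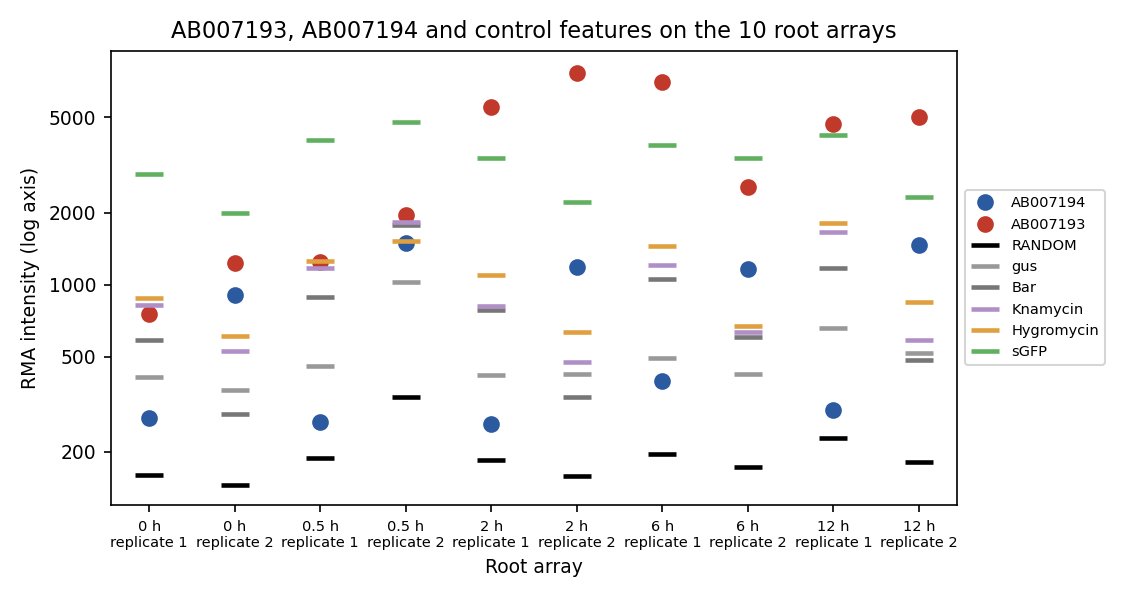
Intensity (log axis) of AB007193 (red), AB007194 (blue), the RANDOM feature and the 5 transgene features (bars) on each of the 10 root arrays. AB007194 lies under all transgene bars on replicate 1 of every time, and AB007193 lies above all of them on 5 arrays from 2 h on.

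Of the genes that the study names with an identifier, rbcS belongs to the carbon-fixing cycle, and it was set beside AB007193 with the light-harvesting genes CB1 to CB6. This list comes from the study, which named CB1 to CB6 for their rise in root on these arrays, so that its direction there is not independent evidence. In root 7 of 7 were called higher at 12 h, beside 3.31% of all genes, and none lower. There were 3 calls at 6 h (CB2, CB4 and CB6), beside 2.19% of all genes, 2 at 2 h (CB2 and CB6), beside 1.67%, and none at 0.5 h. Their median log2 change was 1.74, 1.64 and 2.05 at 2, 6 and 12 h, against medians of −0.02, 0.01 and −0.02 over all genes. CB6, below the RANDOM feature in root at 0 h, rose by at least 4.91, 4.31 and 3.05 at these times, and the medians were the same with CB6 at these bounds. The other 6 ran from 1.02 (CB1) to 2.68 (rbcS) at 2 h, just below the 2.76 of AB007193, which lay inside their range at 6 h (1.16 to 2.36) and 12 h (1.64 to 3.54). In root at 0 h these 6 read 465 to 1415, inside the span of the transgene features on those arrays, 289 to 2890. Their root changes rest on these values. In leaf CB1, CB3 and CB4 were called lower at 12 h, beside 10.2% of all genes, and none of the 7 at earlier times. The leaf changes of AB007193 at 2 and 6 h, −1.50 and −2.20, lay below the lowest of the list, −0.48 and −1.15. At 12 h its −1.55 lay inside the range of −1.90 to −0.78. The difference between AB007193 and the list was not tested.

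**Figure D4:**
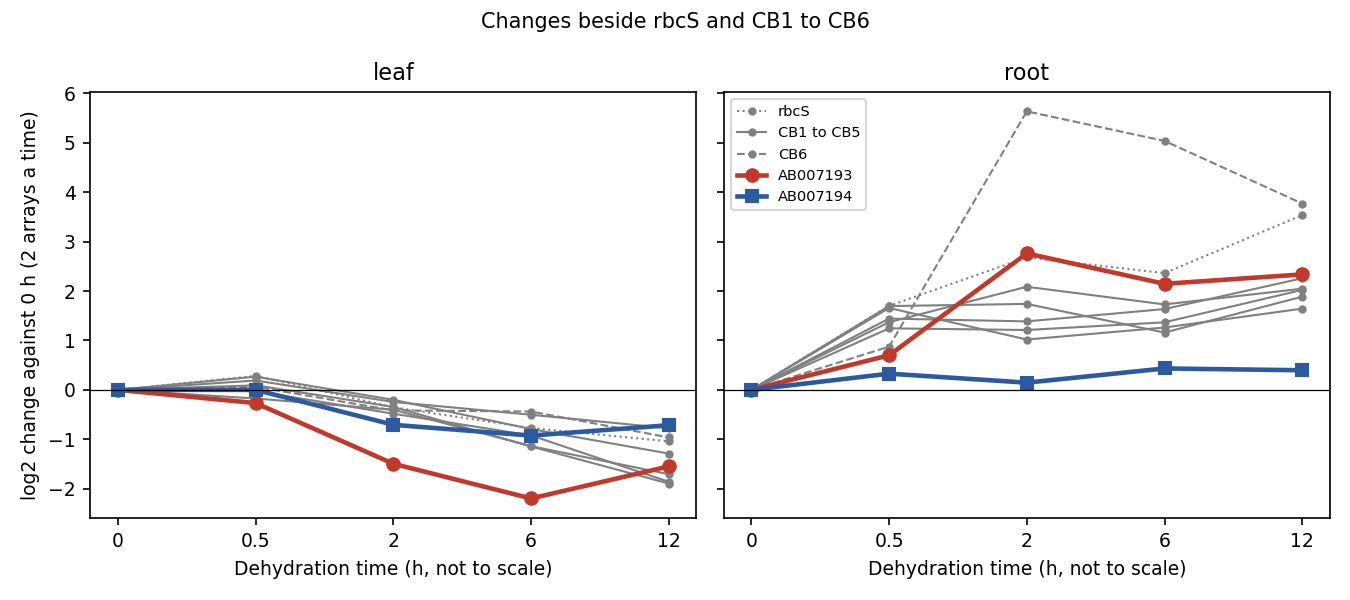
Log2 change against 0 h (means of 2 arrays a time) of AB007193, AB007194, rbcS and CB1 to CB6 in leaf and root. In root AB007193 at 2.76, 2.15 and 2.34 runs close to rbcS at 2 and 6 h, while AB007194 stays between 0.15 and 0.43. CB6 in root is drawn at its fitted changes, although its 0 h values lay below the RANDOM feature.

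The summed intensity of these 7 genes in root was 5940.3 and 5007 at 0 h. In replicate 1 it then read 12,074, 18,282, 14,208 and 16,197 at the successive times, and in replicate 2 it read 21,370.3, 28,063, 27,053 and 42,382. No root value overlapped with leaf, where the sum was between 114,316 and 315,832. The intensity of AB007193 as a percentage of the sum was 8.36 and 11.2 in leaf at 0 h. In root it was 12.7 and 24.5 at 0 h and 10.3 and 9.14 at 0.5 h. It came to 30.4 and 27.2 after 2 h, 49.7 and 9.46 after 6 h, and 29.0 and 11.8 after 12 h. The highest leaf value was 13.2, and replicate 2 of root at 0 h, at 24.5, already lay above it. In root at 0 h AB007193 and each of the 7 genes lay within or below the span of the transgene features. At 2 h both root values were above every leaf value, while at 6 and 12 h replicate 1 was above and replicate 2 within the leaf range. The part of these genes' rise in that of AB007193 was not tested.

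A wider list of 243 other genes was at least 4 log2 units brighter in leaf than in root on every pairing of 0 h arrays. Because the list was picked on the 0 h arrays, which are also the baseline, the choice by itself favours a fall in leaf and a rise in root. Its calls and medians are given as a description, without a test of the list. AB007193 met the same rule. In root 101 of the 243 lay below the RANDOM feature on both 0 h arrays. In root 23, 24 and 36 of the 243 were called higher at 2, 6 and 12 h, beside 1.67%, 2.19% and 3.31% of all genes. Calls of a lower value in root were made for 0, 3 and 4 of them. Of all genes, 3.46%, 8.31% and 14.2% were called in either direction. The root medians of the list were 0.29, 0.30 and 0.51, against 2.76, 2.15 and 2.34 for AB007193. In leaf 117 of the 243 were called lower at 6 h, beside 8.72% of all genes, and the median change of the list was −1.58 against −2.20 for AB007193. At 12 h 117 were again called lower, beside 10.2% of all genes, and the median was −1.65 against −1.55.

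Likeness of course was measured by Pearson's r of log2 intensity with 25,450 genes above the RANDOM feature on at least 10 arrays. It is given as a description, since arrays share tissue, time and replicate. Over all 20 arrays the genes most like AB007193 were Os03g0841900 (r = 0.93), AK068090 (0.92) and AK061603 (0.91), and r was above 0.9 for 4 genes. Having been chosen for their course on these arrays, they changed in root at 2 h by 1.95 for Os03g0841900, 2.39 for AK068090 and 3.41 for AK061603. Os03g0841900 and AK061603 were called higher in root at 2, 6 and 12 h, as were 1.13% of all genes. AK068090 was called at 2 h but not at 6 h (adjusted p = 0.0765 from limma) or 12 h (0.0572). The choice by course favours such calls. Over all arrays the genes most like AB007194 were AK105959 (0.98), AJ491818 (0.98) and AK062716 (0.98), and r was above 0.9 for 130 genes. The sources used here pair none of these 6 identifiers with a name. Within root, the genes whose course was closest to AB007193 were AK111757 and Os05g0557100 (0.97 each) and Os04g0403300 (0.96). In root at 2 h they changed by 3.59, 1.49 and 0.62 in that order, with an adjusted p of 0.261 from limma for Os04g0403300. Over the root arrays r was above 0.9 for 90 genes. Among genes with a known role, the root r of AB007193 was 0.91 with ADF, an actin depolymerizing factor, 0.90 with AWPM, an AWPM-19-like gene, and 0.88 with rab21, a dehydration marker, but 0.42 with dip1, another such marker. Of the green-tissue genes, it was 0.87 with CB6, 0.78 with CB2, 0.55 with rbcS, and between 0.38 and 0.53 with CB1, CB3, CB4 and CB5. CB6 lay below the RANDOM feature on both root arrays of 0 h and on replicate 2 of 0.5 h. In leaf r was −0.80, −0.79, −0.78 and −0.67 with ADF, AWPM, rab21 and dip1. It was 0.79 with rbcS, and from 0.39 (CB6) to 0.71 (CB5) with CB1 to CB6. Over the 10 leaf arrays r between the features was 0.85. For each feature replicate 2 was above replicate 1 in 9 of the 10 groups of tissue and time. The leaf r thus holds differences between replicates as well as between times. Over the 10 root arrays r was 0.14. AB007194 was dim there and split by replicate, so that this r does not compare their courses over time.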

How the data were processed

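Total RNA of leaves and roots was hybridised with Cy3 to single-colour 3′-tiling arrays, 20 in all. The authors summarised probes to genes by RMA, and the deposited intensities are linear, from 10.4 to 65,131. The background step and the arrays normalized together are not given in the sources used here.

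Log2 intensities of 27,609 genes, without the 6 control features, entered one limma fit (version 3.58.1, R 4.3.3) of 10 groups, whose prior had 3.43 degrees of freedom beside 10 residual. The 13 comparisons were 8 against 0 h of a tissue, 1 of root against leaf at 0 h and 4 interactions, each adjusted by Benjamini-Hochberg over all genes, with the study's thresholds. The spread is estimated over both tissues, and p-values measure that between 2 samples a group.

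The features, lists and tests were chosen with earlier results of these data known. Named are the 2 features, control features, genes the study identifies, and the genes of highest Pearson's r. A list of sugar enzymes could not be applied, since 0 identifiers matched the table of gene names. The procedure was tested on simulated data. Alternatives were 3 normalizations, the RANDOM feature as a floor or subtracted, a filter on dim genes, single-tissue fits, another prior, treat, the replicate block, and arrays left out.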

Additional observations from a re-analysis of the deposited data

Results flagged for a closer look

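The change of AB007193 differed between the tissues by limma's interaction contrast at 3 times. The root change minus the leaf change was 4.26 at 2 h (adjusted p = 0.0273). It reached 4.35 by 6 h (adjusted p = 0.0188) and 3.89 by 12 h (adjusted p = 0.0233). At each of these times both root replicates lay above, and both leaf replicates below, the 0 h replicates of their tissue. Such a rise in root was seen for 23%, 29.2% and 26.2% of all genes at 2, 6 and 12 h. Such a fall in leaf was seen for 23.7%, 32.4% and 33.4%. With treat, and with some single arrays left out, each of the 3 interactions lost its call.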

How the results depend on the processing

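The difference of AB007193 between root and leaf at 0 h kept its call in all 10 other settings and with any of the 4 arrays left out. With the RANDOM feature subtracted, calls were lost for AB007193 in leaf (−2.23) and root (2.34) at 6 h and for AB007194 in root against leaf at 0 h (−4.64), and the root change of AB007194 at 2 h turned to −0.10. With only the leaf arrays the 6 h change of AB007193 in leaf stayed −2.20 but lost its call. With treat, which keeps the values, calls were lost for AB007193 in leaf at 6 h (−2.20), in root at 2, 6 and 12 h (2.76, 2.15 and 2.34) and in the interactions (4.26, 4.35 and 3.89), and for AB007194 in root against leaf (−3.93). The leaf change of AB007194 at 0.5 h, −0.00, turned to 0.10 after quantile normalization of all arrays and 0.10 after that of each tissue, and to 0.26 once arrays were centred on their medians. Without the arrays of raised RANDOM feature, leaf 0.5 h replicate 1 and root 0.5 h replicate 2, the 0.5 h values of AB007193 were 0.27 in leaf, 0.38 in root and 0.11 in the interaction, and the others were 0.14 (AB007194, leaf), −0.92 (AB007194, root) and −1.06 (AB007194, interaction). The cause of these losses and turns was not tested.

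With single arrays left out, the values of AB007193 ran from −0.80 to 0.27 in leaf at 0.5 h, −2.24 to −0.76 at 2 h, −2.58 to −1.82 at 6 h and −2.18 to −0.92 at 12 h, and in root from 0.35 to 1.05 at 0.5 h and from 2.41 to 3.11, 1.41 to 2.88 and 1.98 to 2.69 at 2, 6 and 12 h. Its interactions ran from 0.43 to 1.50 at 0.5 h, and then from 3.52 to 4.997, 3.61 to 5.08 and 3.25 to 4.52. Those of AB007194 ran in leaf from −0.20 to 0.20 at 0.5 h, −0.94 to −0.47 at 2 h, −1.61 to −0.24 at 6 h and −1.33 to −0.11 at 12 h, from −4.78 to −3.08 in root against leaf, and in root from −0.92 to 1.57, −0.94 to 1.23, −0.42 to 1.29 and −0.75 to 1.54 at the successive times. Its interactions ran from −0.92 to 1.57 at 0.5 h, −0.24 to 1.94 at 2 h, 0.51 to 2.21 at 6 h and −0.036 to 2.26 at 12 h. A group left with 1 array is assumed to vary like the others.

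The labels number the replicates of every group 1 and 2, but do not say that a number marks shared seedlings or a batch. Deviations of same-numbered arrays correlated at −0.16 to 0.72 over 45 pairs of groups, with 38 above 0.1. With the replicate block no call of either feature changed, the SE of the interactions of AB007194 went from 1.40 to 0.84, and the change of AB007193 in root minus that in leaf at 6 h stayed 4.35. Over all genes the block raised the calls in leaf at 0.5 h from 112 to 357, in root at 0.5 h from 466 to 1102 and at 2 h from 954 to 1507, and in the interactions at 2, 6 and 12 h from 629 to 1050, 813 to 1442 and 1247 to 2014.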
